A study of Arabidopsis thaliana with 4 samples.

Results

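The 10 genes described here are the SQUAMOSA PROMOTER BINDING PROTEIN-LIKE (SPL) genes of Arabidopsis thaliana whose transcripts carry a site for the microRNA miR156. They were taken by gene identifier from a table of 32548 genes: SPL2, SPL3, SPL4, SPL5, SPL6, SPL9, SPL10, SPL11, SPL13A and SPL15. Of the 10 genes, 9 had a read in at least 1 library and 7 had enough reads to be tested. RNA was sequenced from whole seedlings, 2 weeks old, raised on plates in long days, in 2 libraries of the wild type Col-0 and 2 libraries of the uba2c mutant. UBA2C encodes an RNA-binding protein, and the title of the series links it to flowering that depends on ambient temperature and to transcription of the floral repressor gene FLM. The labels give the mutant by its gene name and state neither the allele nor the line it was made in. They also do not say whether the libraries of a genotype came from separate plantings, so the spread between them may be technical.

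SPL proteins are plant transcription factors that bind DNA through the SBP domain. miR156 is abundant in young plants and falls as the shoot ages, and SPL transcripts that pair with it are cleaved or translated less while it is high. As miR156 falls, SPL proteins accumulate and promote adult leaf traits and flowering, partly by activating MIR172 genes, SOC1, FUL, LFY and AP1. miR172 in turn represses AP2-type repressors of flowering, so the microRNAs act one after the other in what is called the age pathway.

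The sequences that define the 10 genes are the mature microRNA and the site in each transcript, read here from the RefSeq annotation of the TAIR10.1 build. The mature strands from the miR156 and miR157 genes that start with nearly the same bases are shown 5′ to 3′, with bases 2 to 8, the seed, in capitals. The genes MIR156a to MIR156f give 1 identical sequence, written here as miR156a, and MIR157a to MIR157c give another, written as miR157a.
miR156a: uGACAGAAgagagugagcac
miR156g: cGACAGAAgagagugagcac
miR156h: uGACAGAAgaaagagagcac
miR156i: uGACAGAAgagagagagcag
miR156j: uGACAGAAgagagagagcac
miR157a: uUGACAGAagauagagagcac
miR157d: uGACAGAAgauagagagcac
The miR156 sequences and miR157d shared the seed GACAGAA, whereas miR157a begins 1 base earlier, so that the same letters are shifted by 1 base.

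All 10 genes held a site of 20 bases with at most 3 mismatches to the full complement of miR156a. The sites are printed 5′ to 3′ on the strand of the transcript, with capitals at the bases that differ from that complement, and positions are counted from 1 at the 5′ end of the site with the base of the complement first.
SPL2: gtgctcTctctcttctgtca
SPL3: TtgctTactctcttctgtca
SPL4: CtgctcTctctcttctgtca
SPL5: CCgctcTctctcttctgtca
The SPL2 sequence, with the difference A7T, was shared letter for letter by 7 genes, namely SPL2, SPL6, SPL9, SPL10, SPL11, SPL13A and SPL15. In these 7 genes the site lay in the coding sequence of the last exon. In SPL3, SPL4 and SPL5 it lay in the 3′ UTR, with the differences G1T and C6T in SPL3, G1C and A7T in SPL4, and G1C, T2C and A7T in SPL5. The sites lay at chr5:17360758-17360777 in SPL2, at chr2:17589066-17589085 in SPL9, at chr1:19807090-19807109 in SPL4 and at chr3:5140598-5140617 in SPL5. A site this close to the complement was rare, since 13 of 27444 protein-coding genes of the table had one (0.0474%), and 11 of the 13 were these 10 genes and SPL13B, the near-identical copy of SPL13A. Since the genes were chosen as targets of miR156, that count describes the choice and tests nothing.

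Values are the deposited expression values, which are reads adjusted by the authors to a common library size and are called adjusted reads here. The recovered libraries held 19720586 to 19847651 reads. In the uba2c mutant the UBA2C transcript was lower in both libraries, at 209 and 234 adjusted reads against 799 and 771 in Col-0 (log2 change −1.83, limma adjusted p = 2.64e-06). FLM was lower as well, with a log2 change of −1.71 (limma adjusted p = 2.94e-06). All log2 changes are uba2c minus Col-0 on the log2(value + 0.5) scale, and a gene was called at an adjusted p under 0.05 from limma fitted over 22439 genes. Over all genes tested, 34.8% were called, 17.4% lower and 17.4% higher in uba2c. With 1 uba2c library left out, limma called 0 of all 22439 genes, with 7503 genes at an unadjusted p under 0.05 without uba2c 1 and 7429 without uba2c 2. UBA2C itself then stood at an adjusted p of 0.0868 and 0.085 with log2 changes of −1.75 and −1.91, so a call lost in these fits says nothing about a gene. edgeR on recovered reads called 5828 and 6492 genes without the same libraries, and its values are given below in their place.

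SPL2 and SPL9, which act in leaf shape and in the pace of leaf formation, were lower in uba2c, and no member was called higher. Of the 7 members tested, 2 were called lower and 5 were not called, against 17.4% of all tested genes called lower, so the count alone does not set the members apart. No member was higher at an unadjusted p under 0.05 in limma, and none was called higher by edgeR, DESeq2 or limma-voom where those fits kept it. On all libraries, edgeR and limma-voom did not keep SPL5. The median log2 change of the 7 tested members was −0.12, against −0.00 over all genes tested. In 6 of the 7 the libraries of the genotypes did not overlap, which was also so for 68.1% of all tested genes. In bulk RNA from whole seedlings, fewer cells of a type and less RNA per cell cannot be told apart.

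SPL9 (AT2G42200, chr2:17587169-17589671, plus strand) encodes a regulator of shoot maturation that lengthens the interval between new leaves and activates MIR172B and SOC1. It stood at 191 and 197 adjusted reads in the Col-0 libraries and at 109 and 132 in the uba2c libraries. Both uba2c values lay well under both Col-0 values. The means were 194 ± 4.18 in Col-0 and 120.0 ± 16.3 in uba2c (SD, n = 2 each), a log2 change of −0.70 (SE 0.12, limma adjusted p = 0.00362), or 1.62-fold lower. The ratio of uba2c to Col-0 reads was 0.614, with a 95% exact interval of 0.522 to 0.721 that covers counting error only. Without the mean-variance trend of limma the adjusted p was 0.0499, just under the threshold. With 1 library left out the log2 change ran from −0.83 to −0.56. The limma adjusted p was 0.0546 without Col-0 1 and 0.0621 without Col-0 2, while the edgeR adjusted p ran from 3.59e-05 to 0.0205 over all 4 libraries left out.

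SPL2, SPL10 and SPL11 form a group of related genes that act together in the shape of leaves and flowers. SPL2 (AT5G43270, chr5:17360287-17363880, minus strand) stood at 323 and 357 adjusted reads in Col-0 and at 233 and 249 in uba2c. The genotypes did not overlap, and the gap between them was wider than the gap within either. The means were 340.2 ± 23.6 in Col-0 and 241 ± 11.7 in uba2c (SD, n = 2 each), a log2 change of −0.50 (SE 0.09, limma adjusted p = 0.0032), or 1.41-fold lower. Reads in uba2c were 0.703 of those in Col-0, with a 95% exact interval from 0.625 to 0.789. Without the mean-variance trend of limma the adjusted p was 0.0481, just under the threshold. With 1 library left out the log2 change ran from −0.57 to −0.42. The limma adjusted p was 0.0545 without Col-0 2, while the edgeR adjusted p ran from 8.81e-06 to 0.0276 over all 4 libraries left out.

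SPL11 (AT1G27360, chr1:9500892-9504023, plus strand) stood at 111 and 109 adjusted reads in Col-0 and at 90.5 and 85.3 in uba2c. Its libraries did not overlap, but the log2 change of −0.32 (SE 0.13) missed the threshold after adjustment (limma adjusted p = 0.0881, unadjusted p = 0.0371). SPL10 (AT1G27370, chr1:9505112-9508542, minus strand), its neighbour on chromosome 1, stood at 207 and 178 adjusted reads in Col-0 and at 199.6 and 156.8 in uba2c. These genotypes overlapped, with a log2 change of −0.12 (SE 0.14, limma adjusted p = 0.548). The read ratios were 0.793 for SPL11 (95% exact interval 0.649 to 0.968) and 0.919 for SPL10 (0.796 to 1.06). Whether SPL2, SPL10 and SPL11 differ from each other in their change was not tested.

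SPL6 (AT1G69170, chr1:26005068-26007368, plus strand), known for a part in immunity, stood at 158 and 161 adjusted reads in Col-0 and at 146 and 149 in uba2c. The genotypes lay close to each other without overlapping, and the log2 change was −0.11 (SE 0.10, limma adjusted p = 0.437).

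SPL3, SPL4 and SPL5 encode short SPL proteins that promote flowering and act on FUL, LFY and AP1. SPL4 (AT1G53160, chr1:19806263-19807705, plus strand) stood at 27.1 and 30.1 adjusted reads in Col-0 and at 41.4 and 34.3 in uba2c. SPL5 (AT3G15270, chr3:5140365-5142323, minus strand) stood at 8.72 and 8.72 in Col-0 and at 9.56 and 16.7 in uba2c. In both genes each uba2c value lay above each Col-0 value, while neither passed the threshold. The log2 changes were 0.40 (SE 0.23, limma adjusted p = 0.212) for SPL4 and 0.51 (SE 0.39, limma adjusted p = 0.349) for SPL5. The SPL5 value rested on single libraries, at 0.90 without uba2c 1 and 0.13 without uba2c 2, and that of SPL4 was 0.26 without uba2c 1 and 0.53 without uba2c 2. Few reads stood behind them, 59 in Col-0 and 78 in uba2c for SPL4 and 18 and 27 for SPL5. The exact 95% intervals of the read ratio, 0.926 to 1.88 and 0.792 to 2.88, allow a fall as well as a rise at this depth. Thus the tested members with the site in the coding sequence had log2 changes from −0.70 to −0.11, and those with the site in the 3′ UTR had 0.40 and 0.51, a contrast between genes that was not tested.

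**Figure D1:**
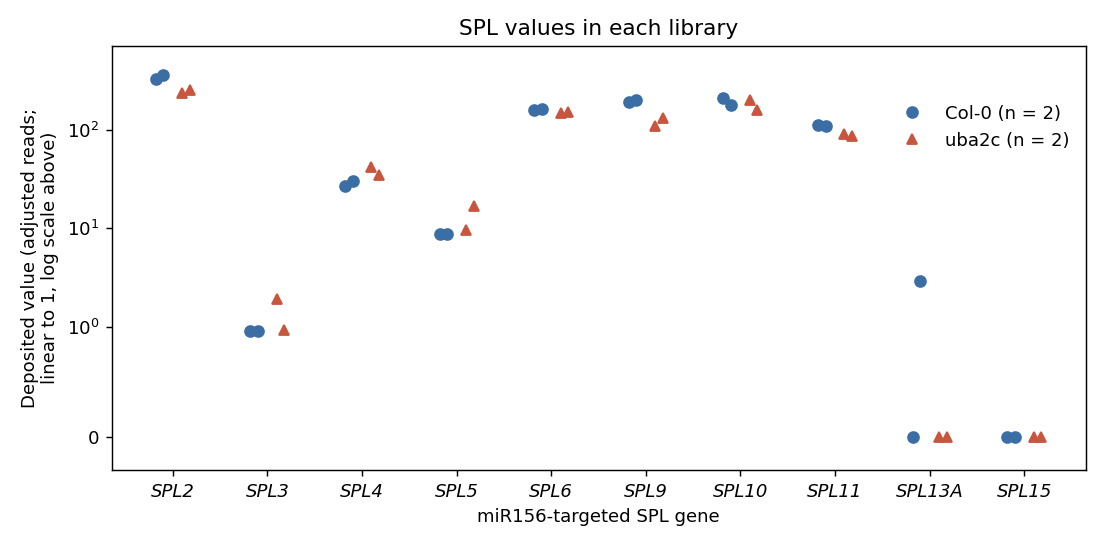
Deposited value (adjusted reads, log scale above 1 and linear below it) of each of the 10 SPL genes in each library, with circles for Col-0 and triangles for uba2c (n = 2 each). SPL2 and SPL9 are lower in both uba2c libraries, SPL10 overlaps between genotypes, and SPL3, SPL13A and SPL15 lie at or near 0 in all 4 libraries.

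The remaining 3 members could not be tested. SPL3 (AT2G33810, chr2:14305001-14306072, plus strand) had 1 and 1 recovered reads in Col-0 and 2 and 1 in uba2c. SPL13A (AT5G50570, chr5:20582083-20584721, minus strand), which acts in leaf form after germination, had 0 and 3 reads in Col-0 and 0 in both uba2c libraries. SPL15 (AT3G57920, chr3:21444243-21446035, minus strand), the closest relative of SPL9 and an activator of FUL and MIR172B at the shoot tip, had 0 reads in every library, where a count of 0 allows up to 3 reads. No change is given for these 3 genes.

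These 3 members differ from the others in how much of their sequence is their own. Of the exon bases of SPL3, 955 of 981 (97.3%) also lie in an exon of AT2G33815, a long noncoding RNA on the opposite strand that had 0 reads in every library. All 1455 exon bases of SPL15 lie in exons of AT3G57910, a protein-coding gene on the opposite strand. AT3G57910 had reads, at 94.1 and 86.2 adjusted reads in Col-0 and 77.8 and 94.2 in uba2c. All 2335 windows of 50 bases, the read length, in the exons of SPL13A occur again in the genome. Its copy SPL13B (AT5G50670, chr5:20615565-20618063, minus strand) likewise had 1977 of 1977 windows repeated, and 4 and 0 reads in Col-0 and 1 and 1 in uba2c. No such window of the other 9 members was repeated.

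For shared exon bases, the same pattern held across the table. Repeated windows were counted only for the members and SPL13B. Among 465 protein-coding genes that share at least 95% of their exon bases with exons of other genes, 433 (93.1%) had no read in any library. That share was 16.7% of the 19961 genes with no shared exon base and 4.2% of the 6419 genes with under 50% shared. It was 29.0% of the 599 genes with 50 to under 95% shared. No source used here says how reads on shared or repeated sequence were counted or whether strand was used. For SPL3, SPL15 and SPL13A, a transcript that was absent and reads that were not counted therefore cannot be told apart. The same holds for AT2G33815, which shares 955 of its 969 exon bases with SPL3. Among the tested members the shared part was smaller: 25.5% of the exon bases of SPL5, 14.4% of SPL4, 3.8% of SPL9, 1.0% of SPL6 and 0 in SPL2, SPL10 and SPL11. The partner of SPL5, AT3G15260 on the opposite strand, was far more abundant than SPL5 and higher in uba2c, at 537 and 481 adjusted reads in Col-0 and 615 and 592 in uba2c (log2 change 0.25, limma adjusted p = 0.0268). Its edgeR adjusted p was 0.129 without Col-0 2 and 0.111 without uba2c 1, its limma adjusted p was 0.166 without Col-0 2, and DESeq2 on all libraries gave 0.101. It was also not called by limma without the filter on low values (0.0614) or without the mean-variance trend (0.133). Its part in the SPL5 values was not tested.

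**Figure D2:**
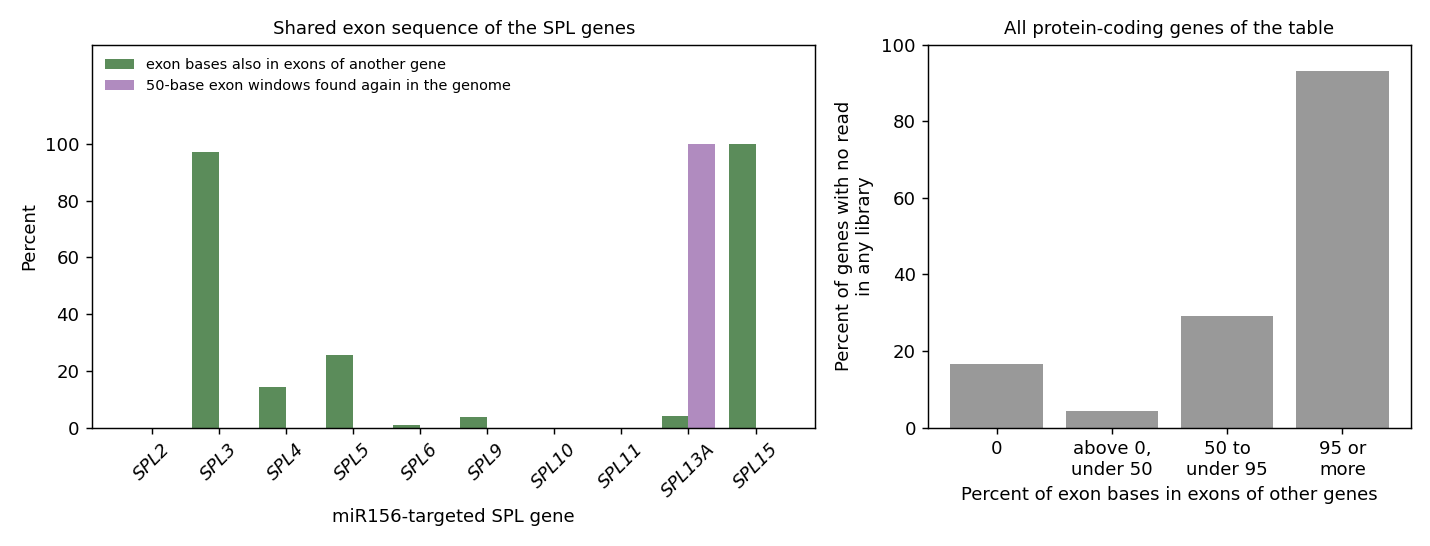
Left, percent of exon bases of each SPL gene that also lie in exons of another gene (green) and percent of 50-base exon windows found again in the genome (purple). Right, percent of protein-coding genes with no read in any library by the percent of exon bases shared, which is 16.7% with none shared and 93.1% with 95% or more shared. SPL3, SPL13A and SPL15 stand at 97% or above on 1 of the measures, and the other 7 genes stay at 25.5% or below.

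On 2 of the members the shared sequence is itself part of the miR156 family. RefSeq places MIR156i on the strand opposite SPL4 and MIR156j on the strand opposite SPL9. The mature miR156i lies at the coordinates of the SPL4 site and the mature miR156j at those of the SPL9 site, so each is the exact complement of that site. Both genes had 0 reads in every library. All 197 exon bases of MIR156i lie in exons of SPL4, and all 68 of MIR156j in exons of SPL9. An absent transcript and reads that were not counted therefore cannot be told apart for them either. The other 6 members with the SPL9 site sequence match miR156j without a mismatch as well.

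SPL3, SPL13A and SPL15 cannot be ranked by level, so the order given here is that of the 7 tested members. Per kilobase of exon, SPL2 was the most abundant of them in Col-0, at 125 and 138 adjusted reads per kb, followed by SPL9 at 107 and 111. SPL6 (81.7 and 83.2), SPL10 (64.8 and 55.9), SPL11 (40.7 and 39.7), SPL4 (19.9 and 22.0) and SPL5 (4.66 and 4.66) came next, and no neighbours in this order overlapped. In uba2c the order was SPL2 at 90.1 and 96.5, then SPL6 at 75.6 and 77.1, then SPL9 at 61.0 and 73.9 and SPL10 at 62.6 and 49.2. SPL9 thus stood above SPL6 in both Col-0 libraries and below it in both uba2c libraries, and it overlapped SPL10 in uba2c. SPL11 (33.1 and 31.2), SPL4 (30.4 and 25.1) and SPL5 (5.10 and 8.93) kept the last places. These levels are per annotated exon base, including shared bases. With shared bases left out of the length, the uba2c means were 32.4 per kb for SPL4 and 32.1 for SPL11. The order of SPL11 and SPL4 in uba2c therefore depends on this choice.

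Beside the targets of miR156, Arabidopsis has SPL genes without such a site, and 6 of them were measured, with 6 to 8 mismatches at the best match in each. SPL1, SPL7 and SPL12 were called higher in uba2c and none was called lower, against 17.4% of all tested genes called higher, with a median log2 change of 0.22 over the 6. SPL1, which acts with SPL12 in heat tolerance of inflorescences, stood at 2616 and 2688 adjusted reads in Col-0 and 3247 and 3193 in uba2c (log2 change 0.28, SE 0.04, limma adjusted p = 0.000818). SPL12 had a log2 change of 0.20 (SE 0.05, limma adjusted p = 0.0156) and SPL7, the main regulator of the copper response, 0.24 (SE 0.06, limma adjusted p = 0.0191). All 3 calls were lost without the mean-variance trend of limma, at adjusted p of 0.0561 for SPL1, 0.138 for SPL12 and 0.116 for SPL7, and DESeq2 lost SPL7 (0.0745). SPL12 and SPL7 also missed the threshold in limma without Col-0 1 (0.112 and 0.0799) and without Col-0 2 (0.111 and 0.138), and in edgeR without uba2c 2 (0.055 and 0.0827). SPL8 (0.48), SPL14 (0.05) and SPL16 (0.13) were not called. The difference in change between SPL genes with and without the site was not tested.

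**Figure D3:**
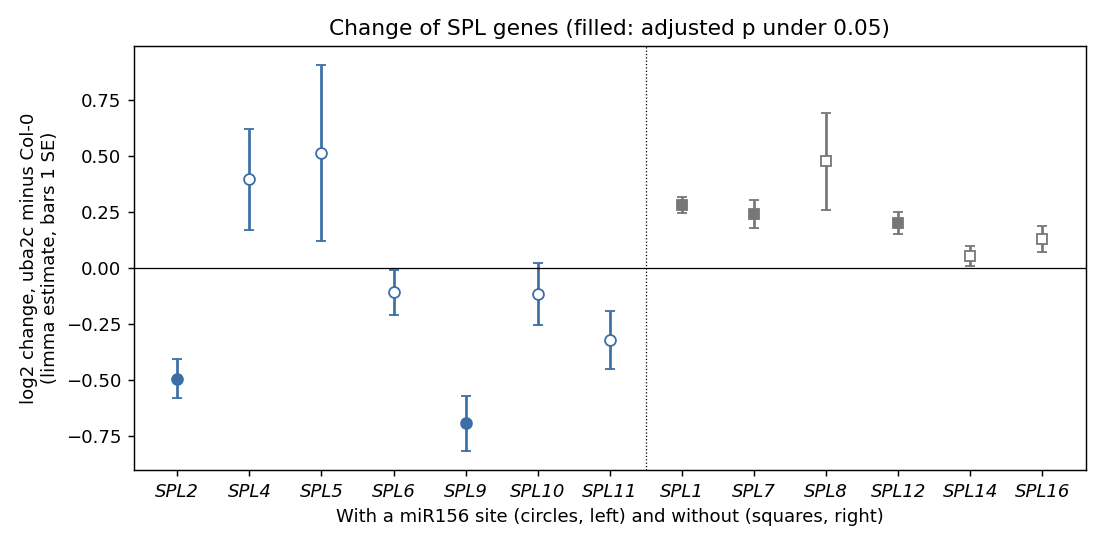
Log2 change (uba2c minus Col-0, limma estimate, bars 1 SE) of the 7 tested SPL genes with a miR156 site (circles) and of the 6 SPL genes without one (squares), with filled marks for adjusted p under 0.05. SPL2 and SPL9 are filled below 0, and SPL1, SPL7 and SPL12 are filled above 0.

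Mature microRNAs are shorter than the 50-base reads of these libraries and were not measured. Few reads fell on the precursors of the miR156 family. The annotated loci of the 12 genes taken here, which leave out MIR156i and MIR156j, are short, from 98 bases (MIR157A) to 221 (MIR157D). Per kilobase, the Col-0 means were 87.1 adjusted reads for MIR157C and 43.3 for MIR156A, beside 82.4 for SPL6 and 40.2 for SPL11. The loci of MIR157C and MIR156A are 217 and 123 bases long, against 1934 and 2737 exon bases for SPL6 and SPL11. Values over such short loci rest on few reads and do not rank the precursors against the SPL genes. Of 12 MIR156 and MIR157 genes, 7 had no read, 4 were tested and 0 were called, while 34.8% of all genes tested were. The remaining gene, MIR157A, had 3 and 1 reads in Col-0 and 0 in both uba2c libraries and was not tested. Among the 7, MIR156B and MIR156F lie wholly in exons of other genes, so their 0 reads do not show absence. None of the 4 had an unadjusted p under 0.05 in limma. On all libraries, edgeR and limma-voom kept only MIR157C and did not call it (adjusted p = 0.24 in edgeR and 0.241 in limma-voom). DESeq2 gave MIR157C an adjusted p of 0.624 and gave MIR156A, MIR156C and MIR156D none, so these fits did not test those genes. MIR156A stood at 5.82 and 4.84 adjusted reads in Col-0 and 7.74 and 2.92 in uba2c, so the genotypes overlapped (log2 change −0.13, limma adjusted p = 0.88). MIR156C stood at 5.84 and 2.88 against 3.87 and 0.968 (log2 change −0.87, limma adjusted p = 0.379), a change that ran from −1.66 without uba2c 1 to −0.08 without uba2c 2. It was −0.42 without Col-0 1. MIR156D stood at 5.85 and 0.937 in Col-0 and 4.82 and 3.92 in uba2c (log2 change 0.68, limma adjusted p = 0.518), with 1.75 without Col-0 1 and −0.39 without Col-0 2. The genotypes overlapped in both. MIR157C, with the most reads of the family, stood at 20.4 and 17.4 in Col-0 and 12.5 and 13.7 in uba2c (log2 change −0.51, limma adjusted p = 0.223). At 11 reads in each genotype, the exact 95% interval of the MIR156A ratio ran from 0.391 to 2.53. It covers counting error only and is not a limit of detection, and at this depth a change may have been missed.

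Next in the pathway, 4 of the 5 MIR172 genes had no read. MIR172B, a target of SPL9 and SPL15, had 2 and 7 reads in Col-0 and 0 and 1 in uba2c. Both uba2c libraries lay under both Col-0 libraries. Reads in uba2c were 0.111 of those in Col-0 (95% exact interval 0.00252 to 0.797). The log2 change of −2.28 (SE 0.88) missed the threshold (limma adjusted p = 0.08), while with the replicate number as a block it was 0.0465. The labels do not say whether a shared number marks paired libraries.

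Among the 6 AP2-type repressors of flowering that miR172 targets, TOE1, TOE2, TOE3 and AP2 were lower in uba2c. These 4 were called lower and none was called higher, against 17.4% of all tested genes called lower, with a median log2 change of −0.52 over the 6. TOE1, which represses FT, stood at 2016 and 1966 adjusted reads in Col-0 and 1157 and 1261 in uba2c (log2 change −0.72, SE 0.05, limma adjusted p = 3.43e-05). TOE2, its relative, stood at 535 and 579 against 433 and 437 (log2 change −0.36, SE 0.06, limma adjusted p = 0.00406). In both genes the gap between the genotypes was wider than the gap within either. AP2, also a floral organ gene, had a log2 change of −0.65 (limma adjusted p = 0.00059) and TOE3 of −0.58 (limma adjusted p = 0.00589). TOE3 shares 6.7% of its exon bases with a gene on the opposite strand, and SMZ shares 30.6% with another such gene. SMZ (−0.46, limma adjusted p = 0.216) and SNZ (−0.18, limma adjusted p = 0.139) were not called. TOE2 missed the threshold in limma without Col-0 2 (0.0553) and without the trend (0.0565), and TOE3 without Col-0 1 (0.0793), while in edgeR all 4 stayed at 0.0276 or below with any library left out.

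Of the flowering genes that SPL proteins bind or activate, SOC1, FUL and FT were higher in uba2c. SOC1, a MADS-box integrator of flowering signals, stood at 1033 and 1085 adjusted reads in Col-0 and 1388 and 1347 in uba2c (log2 change 0.37, SE 0.05, limma adjusted p = 0.000746). FUL, a MADS-box gene of the shoot tip and fruit, stood at 18.4 and 18.4 against 38.5 and 32.3 (log2 change 0.92, SE 0.24, limma adjusted p = 0.0215). FT, the mobile flowering signal from leaves, stood at 5.79 and 8.74 against 43.4 and 30.3 (log2 change 2.27, SE 0.34, limma adjusted p = 0.00168). The uba2c values of all 3 genes lay above their Col-0 values. Of 6 genes in this list, 4 were tested and 3 were called higher, with none called lower, against 17.4% of all tested genes called higher. AGL42 was at a log2 change of −0.23 and not called, and LFY and AP1, which mark young flowers, had at most 2 reads in any library. The FUL call rested on few reads, and its edgeR adjusted p was 0.0777 without uba2c 1. It was not called by DESeq2 on all libraries (0.157), nor by limma without Col-0 1 (0.101) or without Col-0 2 (0.0994). SOC1 and FT stayed at 0.0109 or below in edgeR with any library left out. The lower values of SPL9 and SPL2 and the higher values of SOC1, FUL and FT were found in the same libraries.

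Among 5 other targets of SPL9 or SPL15, in trichomes, leaf bases and pigment, 3 were called lower and none higher, against 17.4% of all tested genes called lower. TRY stood at 11.6 and 13.6 adjusted reads in Col-0 and 10.6 and 13.7 in uba2c (log2 change −0.06, limma adjusted p = 0.913). BOP1 had a log2 change of −0.28 (limma adjusted p = 0.62). TRY and BOP1 were not called, and in both the genotypes overlapped. TCL1, a small MYB protein that SPL9 activates to suppress hairs on the stem, stood at 22.3 and 19.36 adjusted reads in Col-0 and 9.63 and 8.82 in uba2c (log2 change −1.13, SE 0.31, limma adjusted p = 0.0246). Its edgeR adjusted p was 0.0986 without Col-0 1, 0.0632 without uba2c 1 and 0.0718 without uba2c 2. DESeq2 on all libraries gave 0.204, and limma gave 0.132 without Col-0 1 and 0.0876 without Col-0 2. DFR, an enzyme of anthocyanin synthesis that SPL9 holds down, stood at 79.5 and 71.7 against 16.3 and 17.7 (log2 change −2.12, limma adjusted p = 0.00019). BOP2, a regulator of leaf bases, had a log2 change of −0.51 (limma adjusted p = 0.0104) and shares 18.2% of its exon bases with a gene on the opposite strand. BOP2 was not called by DESeq2 (0.0802), nor by limma without Col-0 1 (0.0985) or without Col-0 2 (0.0665), so that DESeq2 kept DFR alone of the 3.

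Of 5 genes whose proteins bind SPL proteins, 3 were called higher and 1 lower, against 17.4% of all tested genes called in each direction. The DELLA proteins RGA and GAI, which hold back growth and bind SPL9, were at log2 changes of 0.35 (limma adjusted p = 0.000798) and 0.48 (limma adjusted p = 0.00015), and the corepressor TPL was at 0.38 (limma adjusted p = 0.000181). PAP1, the MYB activator of anthocyanin genes whose complex SPL9 disturbs, stood at 34.9 and 32.0 adjusted reads in Col-0 and 5.78 and 4.90 in uba2c (log2 change −2.54, limma adjusted p = 0.000626). PAP1 was 5.82-fold lower, beside 4.34-fold for DFR, a gene it activates. In edgeR the adjusted p of these 4 called genes was at most 0.00606 with any library left out, and RGA missed the threshold in limma without the trend (0.0551). FD, the partner of FT that also binds SPL3, SPL4 and SPL5, was at −0.33 and was not called.

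Of the genes that make or steer miR156, DCL1 and TPS1 were called. Of 7 genes of small RNA processing, DCL1, which cuts microRNA precursors, was called lower, with a log2 change of −0.17 (limma adjusted p = 0.0384), and 6 were not called, beside 17.4% of all tested genes called lower. The DCL1 call was lost in edgeR with any library left out (0.0815 to 0.133), in limma without Col-0 1 (0.159) or Col-0 2 (0.129), without the trend (0.107) and with DESeq2 (0.268). Of 8 regulators of MIR156 or SPL transcription, TPS1, which makes the sugar signal trehalose-6-phosphate, was called lower (log2 change −0.32, limma adjusted p = 0.0063) and 7 were not called. These counts, 1 of 7 and 1 of 8, are near the share of all genes called lower, and a gene that was not called may still differ. The TPS1 adjusted p was 0.0799 in limma without Col-0 1, 0.0814 without the trend, and at most 0.0436 in edgeR with any library left out. DCL1 and TPS1 both share exon bases with genes on the opposite strand.

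**Figure D4:**
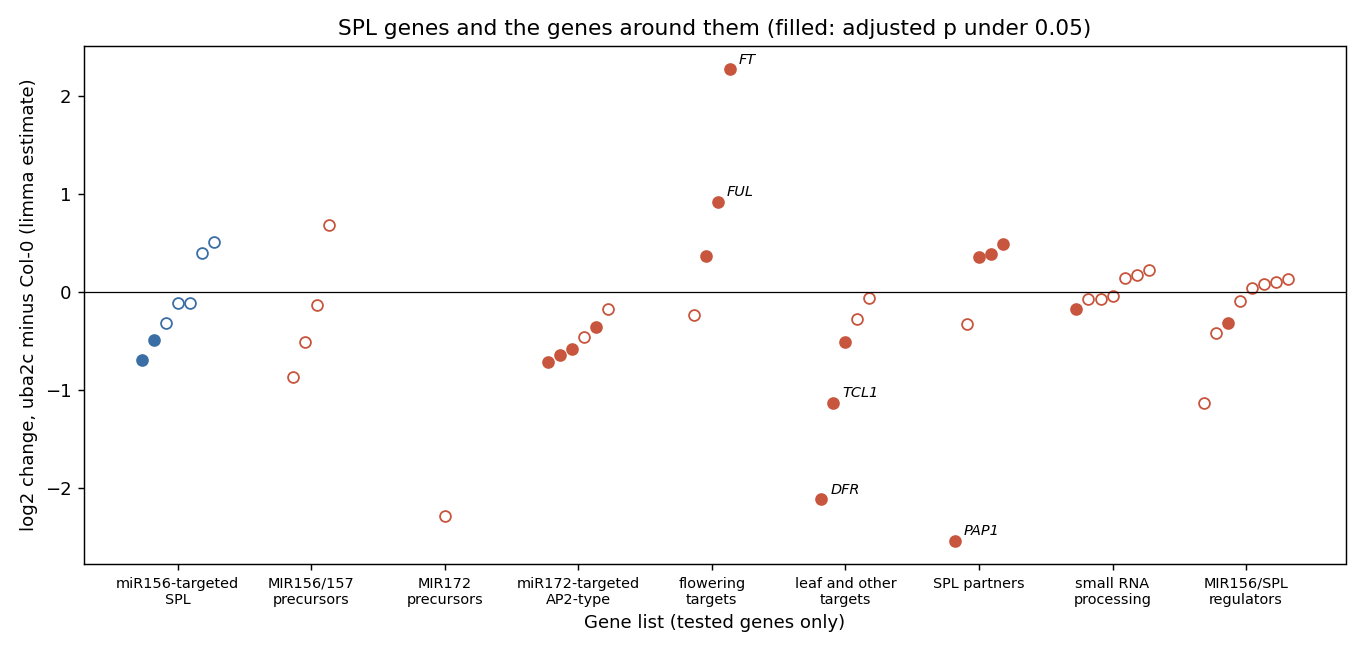
Log2 change (uba2c minus Col-0, limma estimate) of each tested gene in the lists of the miR156 and SPL pathway, with filled circles for adjusted p under 0.05 and the SPL members in blue. The AP2-type genes lie below 0, whereas FT, FUL and SOC1 lie above 0 in the flowering list.

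Markers of organs and tissues were read beside these results. The 5 green tissue markers summed to 717568 to 723770 adjusted reads in Col-0 and to 698021 to 757626 in uba2c, with 2 markers called higher and 2 lower. The 7 root markers summed to 35748 to 36606 and to 37046 to 37550, a sum that is mostly BGLU23, and 4 of the 7 were called lower and 2 higher. The 4 were the root hair genes PRP3, EXPA7, LRX1 and COBL9, and the 2 were SCR (log2 change 0.22, limma adjusted p = 0.0403) and BGLU23 (0.12, limma adjusted p = 0.0226). The 6 shoot meristem markers summed to 94.0 to 95.9 in Col-0 and 159.9 to 163 in uba2c. STM, which keeps the meristem undifferentiated, rose from 6.77 and 7.76 to 36.4 and 51.1 adjusted reads (log2 change 2.49, limma adjusted p = 0.000584) and KNAT1 rose by 0.55 on the log2 scale, while WUS and CLV3 were at 0 in every library. CUC2, at 2.89 and 4.86 in Col-0 and 0.959 and 0.979 in uba2c (log2 change −1.54, limma adjusted p = 0.0962), and CUC3, at 7.77 and 4.82 against 3.86 and 1.95 (log2 change −1.02, limma adjusted p = 0.187), were not called and lay lower in uba2c. The higher sum thus comes from STM and KNAT1, and the median log2 change of the 4 tested markers was −0.24. The 5 flower markers summed to 189.9 to 194 in Col-0 and 137 to 141 in uba2c, with AP3 and AG called lower. The marker calls were not followed through the other fits. The part of these shifts in the SPL values was not tested.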

How the data were processed

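RNA-seq of 4 libraries was analysed, 2 of Col-0 and 2 of uba2c. The submitters' processing notes name the TAIR10 build and the tools HISAT2, featureCounts, SAMtools 1.9, edgeR and FastQC. The authors deposited a normalised signal per gene, reads adjusted to a common library size. These values behave as edgeR pseudo-counts, and inverting them returned whole reads for 100% of values in each library within a tolerance of 0.001. All 32548 identifiers matched RefSeq TAIR10.1.

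limma 3.58.1 with a mean-variance trend (R 4.3.3) was fitted to log2(value + 0.5) for the 22439 genes that reached a value of 1 in 2 or more libraries. Tests were two-sided, with Benjamini-Hochberg adjustment over all genes tested at a false discovery rate of 0.05. The pseudocount shrinks the change of low genes. Fits by edgeR 4.0.16, DESeq2 1.42.0 and limma-voom on recovered reads were alternatives, as were other pseudocounts, filters and scalings, the replicate block and leaving out each library. Steps were tested on simulated data.

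Chi-square divided by its degrees of freedom came to 1.49 for the Col-0 libraries and 1.97 for the uba2c libraries, so replicates differed by more than sampling noise. The table held 0 columns of other samples.

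The 10 genes and all lists were chosen with earlier results of these data known. The rule for named genes took all members and SPL13B, UBA2C and FLM, certain pathway genes whatever their result, and up to 6 called genes of each list. Genes that overlap a member or share its microRNA site, and uncalled genes named beside a count, were named outside it.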

Additional observations from a re-analysis of the deposited data

How the results depend on the processing

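The count of genes called was 7809 in the main analysis, 3589 without the mean-variance trend and 4804 with DESeq2 on recovered reads. With 1 library left out it ran from 0 to 7251, and the count of members called ran from 0 to 2. limma called 0 genes without uba2c 1 or without uba2c 2, with 7503 and 7429 genes at an unadjusted p under 0.05, and edgeR called 5828 and 6492. In these limma fits, where the lone uba2c library was assumed to vary like the others, no gene passed, so lost calls say nothing about single genes. SPL2 and SPL9 kept their direction in all 18 alternatives, and kept their call in 15 and 14 of them. Without the trend both stood just under the threshold, at a limma adjusted p of 0.0481 for SPL2 and 0.0499 for SPL9. The organ and tissue markers, TRY and BOP1 were not followed through the alternatives. Of the other named genes, 8 calls were lost without the trend (SPL1, SPL7, SPL12, TOE2, RGA, DCL1, TPS1 and AT3G15260). DESeq2 lost 6 calls (SPL7, FUL, TCL1, BOP2, DCL1 and AT3G15260), and 1 was lost without the filter on low values (AT3G15260). Among these genes, the direction of 4 uncalled ones turned. MIR156A was at 0.00 (0.0025) with DESeq2, and with 1 library left out it ran from −0.76 to 0.51, MIR156D from −0.39 to 1.75, SPL10 from −0.29 to 0.057 and AT3G57910 from −0.21 to 0.065. The causes were not tested. With the replicate block 8025 genes were called, and of the named genes that were followed it changed the call of MIR172B alone. The differences between libraries 1 and 2 correlated at 0.017 between genotypes over 16851 genes. No shift common to libraries of the same number was thus seen, and the labels do not say whether they were paired. The share of called genes that were higher was 50% in the main analysis and 44.6% without the trend, and no scaling moved the median of all genes beyond −0.02. At these depths SPL4, SPL5 and the microRNA precursors had too few reads for small changes to be seen.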

Other observations

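Only 2 protein-coding genes outside the SPL family held a site with at most 3 mismatches to the complement of miR156a. AT3G28690, with the site in the 5′ UTR (C10T, C15T and C19T), stood at 1206 and 1235 adjusted reads in Col-0 and 1129 and 1189 in uba2c (log2 change −0.07, limma adjusted p = 0.257). AT3G47170, with the site in coding sequence (T5A, A7T and G17C), had 0 reads in every library.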
